A study of Mus musculus with 2 samples.

Results

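Genes of enzymes that write DNA methylation, and of protein families that read it, were examined as possible targets of EGR1 in the mouse frontal cortex. The set held 8 genes, namely the DNA methyltransferase genes Dnmt1, Dnmt3a and Dnmt3b, the gene of the maintenance factor Uhrf1, and the genes of the methyl-CpG-binding domain proteins Mbd1, Mbd2, Mbd3 and Mbd4. An EGR1 peak was counted to a gene when its centre lay in the gene body or within 10 kb of any transcription start site (TSS) that GENCODE release M21 annotates for the gene. By this rule the genes held 13 of the 12014 EGR1 peaks, and no peak was counted to more than 1 of them. The peaks came from ChIP-seq, in which DNA bound by a protein is pulled down with an antibody and sequenced, on micro-dissected frontal cortices of male F1 hybrid mice (C57BL6N/129SvEv) at 6 weeks of age. Cortices of several mice were pooled for each ChIP. The deposited list merged 2 ChIP experiments into 1 set of intervals on mouse build mm10, each with an irreproducible discovery rate (IDR), a value read like a q-value that is small where a peak ranked high in each experiment. It held no read counts and no values per experiment, so the depth behind a peak is unknown, the values have no replicate error, and no difference between genes could be tested. Input DNA of the same tissue was not analysed here.

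EGR1 is a zinc-finger transcription factor that neurons induce rapidly upon activity, and its zinc fingers contact a GC-rich site of 9 bases, GCGTGGGCG or GCGGGGGCG, each with 2 CpGs. Mammalian DNA is methylated mainly at CpG. Dnmt3a and Dnmt3b set new methylation, whereas Dnmt1 copies it to the daughter strand at replication, guided by Uhrf1, which recognises hemimethylated CpGs. The methyl-CpG-binding domain proteins share a fold that can recognise methylated CpG. Mbd2 and Mbd3 are alternative subunits of the NuRD chromatin-remodelling and deacetylase complex, and Mbd4 is a glycosylase that removes the thymine left when methylated cytosine is deaminated. In the brain, Dnmt3a continues to act in postmitotic neurons.

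The peaks on which the results turn differ in sequence. They are printed from the GRCm38.p6 reference (the mm10 build), 5′ to 3′ on the strand of the gene, in lower case with exact EGR1 motifs in capitals. The reference is not the sequence of the hybrid mice. Where a peak runs into an untranslated region, the part outside it is shown. The first Dnmt3a peak (chr12:3807906-3808169, plus strand) is CpG-rich and holds the motif. The next Dnmt3a peak (chr12:3817157-3817420, plus strand) has few CpGs and no motif. The peak within the Kdm4b gene that was counted to Uhrf1 (chr17:56326422-56326671, plus strand) and the one upstream of Mex3d that was counted to Mbd3 (chr10:80387738-80387927, minus strand) hold the motif outside the genes they were counted to. The promoter peaks of Dnmt1 (shown for chr9:20952980-20953072, minus strand), Mbd3 (chr10:80399551-80399659, minus strand) and Mbd4 (chr6:115853372-115853469, minus strand) hold no exact motif. The last sequence is the 250 bases before the Dnmt3b start site in RefSeq (chr2:153649199-153649448, plus strand), which hold 2 exact motifs in the absence of a peak.
Dnmt3a peak 1: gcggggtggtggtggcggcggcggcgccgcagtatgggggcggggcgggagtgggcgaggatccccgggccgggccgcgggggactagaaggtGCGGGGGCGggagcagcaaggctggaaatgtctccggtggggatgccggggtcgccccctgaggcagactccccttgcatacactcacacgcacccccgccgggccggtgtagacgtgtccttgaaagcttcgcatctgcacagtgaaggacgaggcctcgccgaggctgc
Dnmt3a peak 2: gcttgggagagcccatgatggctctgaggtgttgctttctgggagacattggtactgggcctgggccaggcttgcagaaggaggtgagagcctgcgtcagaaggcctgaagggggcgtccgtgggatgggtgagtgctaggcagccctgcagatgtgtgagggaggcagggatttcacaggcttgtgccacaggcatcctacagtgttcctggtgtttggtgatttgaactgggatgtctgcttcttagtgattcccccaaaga
Uhrf1 peak 2, in Kdm4b: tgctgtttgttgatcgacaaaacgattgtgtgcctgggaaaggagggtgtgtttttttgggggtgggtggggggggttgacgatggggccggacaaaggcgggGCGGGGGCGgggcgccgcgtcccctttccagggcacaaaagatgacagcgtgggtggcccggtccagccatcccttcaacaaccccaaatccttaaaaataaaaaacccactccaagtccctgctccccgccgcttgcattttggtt
Mbd3 peak 4, before Mex3d: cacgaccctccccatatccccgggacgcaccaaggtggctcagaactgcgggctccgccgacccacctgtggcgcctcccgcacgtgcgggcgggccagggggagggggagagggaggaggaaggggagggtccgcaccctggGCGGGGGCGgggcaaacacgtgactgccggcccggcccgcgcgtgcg
Dnmt1 peak, part: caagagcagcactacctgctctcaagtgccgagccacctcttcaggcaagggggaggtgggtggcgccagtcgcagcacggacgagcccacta
Mbd3 peak 2, part: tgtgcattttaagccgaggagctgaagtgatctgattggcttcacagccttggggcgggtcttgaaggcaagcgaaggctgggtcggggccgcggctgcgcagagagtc
Mbd4 peak, part: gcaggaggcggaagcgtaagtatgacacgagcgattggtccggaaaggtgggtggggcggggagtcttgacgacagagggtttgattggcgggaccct
Dnmt3b promoter, no peak: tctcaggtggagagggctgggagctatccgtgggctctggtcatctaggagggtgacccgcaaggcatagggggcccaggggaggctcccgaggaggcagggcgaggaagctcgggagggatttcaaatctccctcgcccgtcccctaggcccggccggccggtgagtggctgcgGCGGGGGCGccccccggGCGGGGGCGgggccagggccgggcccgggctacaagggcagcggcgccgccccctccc

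At least 1 EGR1 peak was found for 6 of the 8 genes (75%), and Dnmt3b and Mbd1 had none. By the same rule 39.6% of all 21938 protein-coding genes had a peak. All 8 genes have at least 1 CpG-rich promoter, defined as a window from 250 bp before to 50 bp after a TSS with a GC content of at least 50% and an observed/expected CpG ratio of at least 0.6, the ratio of the CpGs present to those that the C and G content would give by itself. Among the 11960 protein-coding genes with such a promoter the share was 58.5%. A peak centre within 500 bp of an own TSS was found for 4 of the 8 genes (50%), Dnmt1, Mbd2, Mbd3 and Mbd4, against 25.8% of all protein-coding genes and 43.1% of those with a CpG-rich promoter. The share of the 8 genes with a peak at a start site was thus nearer to that of genes with CpG-rich promoters than to that of all genes. Dnmt3a and Mbd3 had 4 peaks each, a number reached by 1.84% of protein-coding genes. That share is over genes of any length. Dnmt3a had the longest sequence searched of the 8 genes (120810 bp), and the Mbd3 count includes the peaks nearest to Uqcr11 and Mex3d. Protein-coding genes with any peak had a median of 1 peak.

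**Figure D1:**
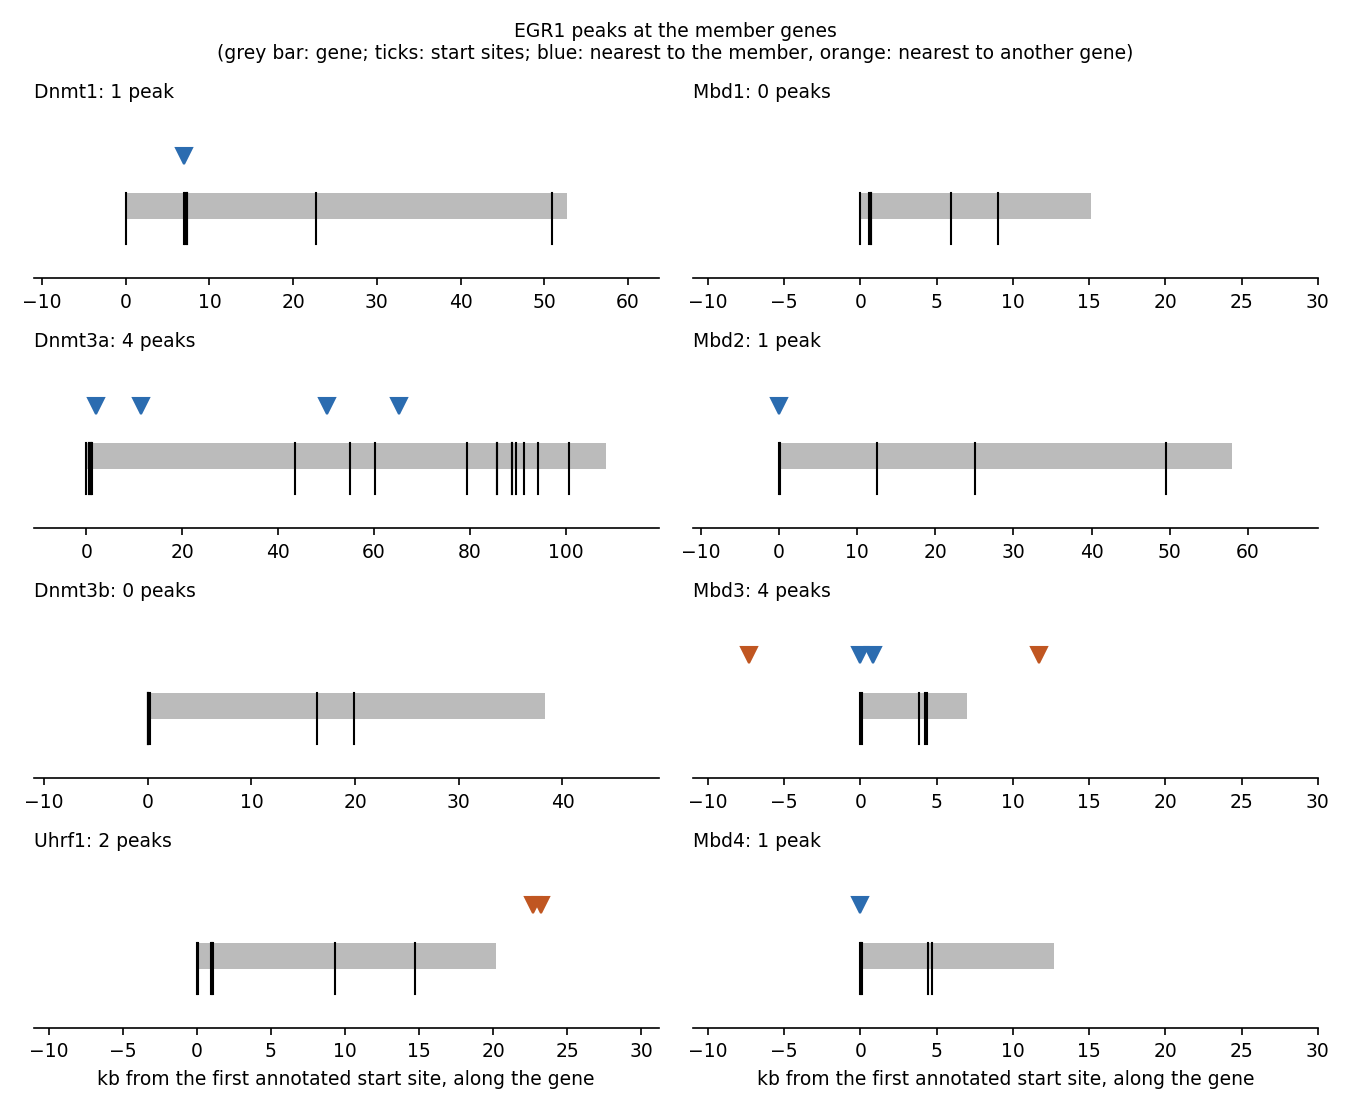
Map of the 8 genes drawn along their own strand, with kb from the first annotated start site on the x axis of each panel, the gene as a grey bar, start sites as ticks and peak centres as triangles. Of the 13 peaks, 9 were nearest to a start site of the gene itself (blue) and 4 to that of another protein-coding gene (orange), namely both of Uhrf1 and the outer 2 of Mbd3.

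The map of the genes shows that peaks counted to the same gene can belong to different promoters. Of the 13 peaks, 6 had their centre inside the gene they were counted to and 7 outside it, of which 3 were the promoter peaks of Mbd2, Mbd3 and Mbd4, within 25 bp of a start. The other 4 lay near the start of a neighbouring gene, so the rule alone does not tell to which gene they belong. Within 500 bp of a TSS of any protein-coding gene lay 8 of the 13 peaks, and the share over all peaks is not given here. Within 2 kb lay 10 of the 13, against 7167 of all 11938 peaks on assembled chromosomes, so most peaks of the list also lay near a start site. The rule admits only peaks in a gene or within 10 kb of a start, a limit the whole list does not have.

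Dnmt1, the maintenance methyltransferase, had a single peak. Dnmt1 (ENSMUSG00000004099.16) lies on chromosome 9 from 20907209 to 20959888 on the minus strand, and its peak ran from 20952823 to 20953072 with an IDR of 9.31e-05, placing it 5033rd of the list by IDR. Its centre was in the 5′UTR, 31 bp downstream of the start of the coding transcript Dnmt1-201, and 4 of the 7 Dnmt1 start sites lay within 500 bp of it. The first start site of the gene, that of the coding transcript Dnmt1-202, was 6940 bp from the peak centre, and its window had a CpG ratio of only 0.10. EGR1 was therefore found at a cluster of Dnmt1 starts, 3 of them CpG-rich, and not at the first start of the gene. The start nearest to the peak centre, that of Dnmt1-201, fell short of the limit, with a CpG ratio of 0.50. The peak held 19 CpGs at 64.4% GC, and its CpG ratio was 0.74, against 0.16 and 0.08 in windows of its size 5 kb to the left and right. It had no exact EGR1 motif. A site with 1 mismatch, GAGGGGGCG (C2A, where the base of the motif stands first, then its position counted from 1 at the 5′ end of the motif, then the base of the genome), lay 84 bp from the peak centre.

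Dnmt3a, the de novo methyltransferase of neurons, had 4 peaks, all in introns. Dnmt3a (ENSMUSG00000020661.15) spans 108437 bp of chromosome 12, from 3806007 to 3914443 on the plus strand. The IDR of its peaks increased along the gene, from 7.45e-07 at the first (3807906 to 3808169) through 2.47e-05 at the second (3817157 to 3817420) and 0.0011 at the third (3856151 to 3856414) to 0.0143 at the last (3871143 to 3871406). The first peak thus ranked 2479th of the list and the last one 11325th, near the IDR limit of 2%. Peak centres were 9251, 38994 and 14992 bp apart.

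The first Dnmt3a peak was the only one of the 4 near a start site. It was centred 878 bp downstream of the start of the coding transcript Dnmt3a-218, and 5 of the 18 Dnmt3a start sites lay within 2 kb of it, but none within 500 bp. Those 5 starts were all CpG-rich, with CpG ratios of up to 1.06. The peak held 27 CpGs at a GC content of 72%, and its CpG ratio was 0.82. Its exact motif lay from 3807999 to 3808007, 35 bp from the centre. The second and the third peak had 3 CpGs and a CpG ratio of 0.15 each, and the last one had 12 CpGs and a ratio of 0.48. None of these 3 held an EGR1 motif even with 1 mismatch. They were 10129, 4738 and 5084 bp from the nearest Dnmt3a start. The internal start sites of the coding transcripts Dnmt3a-205 and Dnmt3a-203, which have GC contents of 74.7% and 74% but fall short of the CpG ratio set for a CpG-rich promoter (0.45 and 0.47), were 20453 and 20469 bp from the nearest peak.

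Dnmt3b, the other de novo methyltransferase, which is best known from early development, had no peak. Dnmt3b (ENSMUSG00000027478.15) lies on chromosome 2 from 153649450 to 153687730 on the plus strand. The nearest peak (153741166 to 153741315, IDR 4.15e-08) was 71871 bp downstream of its last start site and 33 bp upstream of Mapre1, a gene of a microtubule-end-binding protein. Of its 6 start sites, 4 were CpG-rich, with ratios of 0.71 to 1.05, and the overlapping windows of these 4 held an exact EGR1 motif. In the RefSeq promoter printed above, the 2 motifs began 75 and 58 bases before the start. The sequence at Dnmt3b thus had what most promoters lack, as 3.47% of 32851 RefSeq promoters of 300 bp held an exact motif, but the list has no peak there. That share is over promoters of any GC content, whereas the Dnmt3b promoter has 76%. A share for promoters of like GC content is not given here.

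Uhrf1, which brings Dnmt1 to replicated DNA, had 2 peaks by the rule, neither at its own promoter. Uhrf1 (ENSMUSG00000001228.14) lies on chromosome 17 from 56303321 to 56323486 on the plus strand, and the peaks lay downstream of its end, 542 bp apart. The first (56325880 to 56326129, IDR 2.04e-05) was centred 57 bp upstream of a start of Kdm4b (ENSMUSG00000024201.12), which encodes a demethylase of histone H3, and had a CpG ratio of 0.86. The second (56326422 to 56326671, IDR 0.00232) was in an intron of Kdm4b, 456 bp downstream of a start, with a ratio of 0.67 and an exact motif from 56326525 to 56326533. Both were counted to Uhrf1 only because the start of the non-coding transcript Uhrf1-206 lay 7979 and 8521 bp away. None of the 7 Uhrf1 starts had a peak within 2 kb. Those of the 5 coding transcripts, 3 of them CpG-rich, were 19753 to 20839 bp from the nearest peak. With start sites of protein-coding transcripts only, Uhrf1 had no peak and 5 of the 8 genes kept one.

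Mbd1, a methyl-CpG-binding repressor, had no peak. Mbd1 (ENSMUSG00000024561.10) lies on chromosome 18 from 74267605 to 74282732 on the plus strand. The nearest peak (74207810 to 74207924, IDR 7.37e-08) was 59738 bp upstream of its first start and 49 bp upstream of Ska1, a gene of the mitotic spindle. Of the 6 Mbd1 starts, 3 were CpG-rich with ratios of 0.88 to 0.95, within the range of the starts of Mbd3 and Mbd4 that had a peak. No window held an EGR1 motif, either exact or with 1 mismatch. In this respect Mbd1 differed from Dnmt3b, the other gene with no peak.

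Mbd2, a methyl-CpG-binding subunit of NuRD, had the peak with the lowest IDR of the 13. Mbd2 (ENSMUSG00000024513.16) lies on chromosome 18 from 70568189 to 70626131 on the plus strand. Its peak ran from 70568094 to 70568234 with an IDR of 3.75e-08, and only 2.34% of all peaks had a lower one. At 141 bp it was also the narrowest of the 13. The centre was 25 bp upstream of the start of the coding transcript Mbd2-201 and within 500 bp of both CpG-rich Mbd2 starts. The peak held 11 CpGs at 70.9% GC, for a CpG ratio of 0.65, and an exact motif of the G form 5 bp from its centre, closer than the motif of any other of the 13 peaks.

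Mbd3, the alternative NuRD subunit, had 4 peaks around a gene of 7012 bp. Mbd3 (ENSMUSG00000035478.14) lies on chromosome 10 from 80392539 to 80399550 on the minus strand. Only 2 of the 4 peaks were nearest to Mbd3 itself. One spanned its start (80399445 to 80399659, IDR 7.72e-07), centred 2 bp upstream of the start of Mbd3-201 and Mbd3-204, and the other lay in an intron (80398627 to 80398890, IDR 0.00194), 663 bp downstream of the start of Mbd3-203. They had CpG ratios of 0.90 and 0.75 and no exact motif. With 1 mismatch, the promoter peak held 3 sites and the intronic peak 1 site, GCGGGGGTG (C8T).

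The outer Mbd3 peaks lay at neighbouring promoters. The upstream one (80406778 to 80406984, IDR 6.99e-07) was 51 bp upstream of Uqcr11 (ENSMUSG00000020163.12), which encodes a subunit of respiratory complex III, and 7331 bp upstream of Mbd3. It had no EGR1 motif even with 1 mismatch, but a CpG ratio of 0.81. The downstream one (80387738 to 80387927, IDR 1.57e-06) was 174 bp upstream of Mex3d (ENSMUSG00000048696.11), a gene of an RNA-binding protein, and held an exact motif from 80387776 to 80387784. With a GC content of 76.3% it was the richest in G and C of the 13. Per length of sequence searched, Mbd3 had the most peaks of the 8 genes, 16.41 per 100 kb. Next were Uhrf1 (5.763), Mbd4 (4.054) and Dnmt3a (3.311). The Mbd3 count includes the peaks near Uqcr11 and Mex3d, and that of Uhrf1 is made up of peaks near Kdm4b.

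Mbd4, the mismatch glycosylase, had 1 peak at a promoter shared by 2 genes. Mbd4 (ENSMUSG00000030322.12) lies on chromosome 6 from 115840697 to 115853371 on the minus strand. The peak (115853255 to 115853515, IDR 5.62e-07) was centred 14 bp upstream of the start of Mbd4-201 and 85 bp upstream of the nearest start, at 115853470, of Ift122 (ENSMUSG00000030323.13), which runs the opposite way and encodes a protein of intraflagellar transport. The peak therefore cannot be assigned to Mbd4 or Ift122 alone. Its CpG ratio of 0.94 was the highest of the 13 peaks, with 20 CpGs and windows of 0.19 and 0.09 to the left and right. No exact motif was present, and the closest site was GCGGTGGCG (G5T), 40 bp from the centre.

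**Figure D2:**
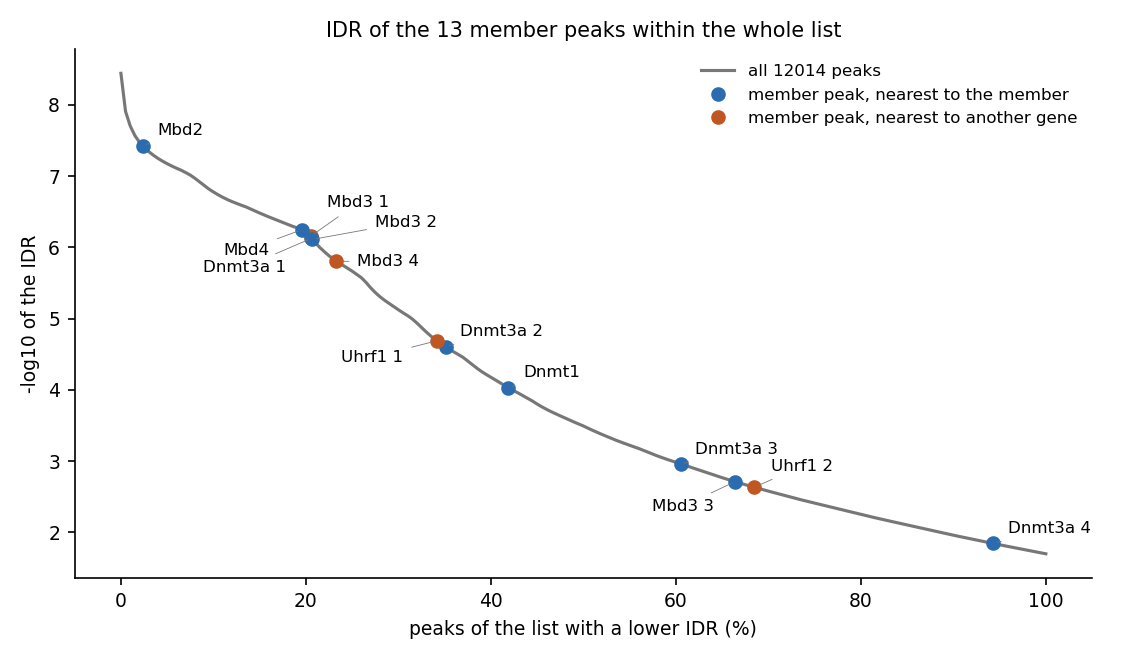
The −log10 of the IDR of the 13 peaks (y axis) at their place in the list, given as the percentage of all peaks with a lower IDR (x axis), with all 12014 peaks as the grey line. Mbd2 stands at 2.34%, whereas the last Dnmt3a peak has an IDR of 0.0143, and orange points are the 4 peaks nearest to another gene.

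The median IDR of the 13 peaks was 2.04e-05. It was 0.000321 over the whole list and 8.56e-05 over peaks within 2 kb of a protein-coding TSS. An IDR of 0.001 or less was found for 9 of the 13 (69.2%) and for 59.5% of all peaks on assembled chromosomes. Among peaks within 2 kb of a protein-coding TSS this share was 67.2%, close to that of the 13. Within the set, the 8 peaks within 500 bp of a protein-coding TSS had a median IDR of 1.17e-06 and the other 5 one of 0.0011. The plot of the IDR by place in the list shows the promoter peaks of Mbd2, Mbd3 and Mbd4 in its upper part, together with the first Dnmt3a peak and the peaks near Uqcr11 and Mex3d. The Dnmt1 promoter peak stood apart from these, with a higher IDR of 9.31e-05, which was near the median of peaks within 2 kb of a protein-coding TSS.

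**Figure D3:**
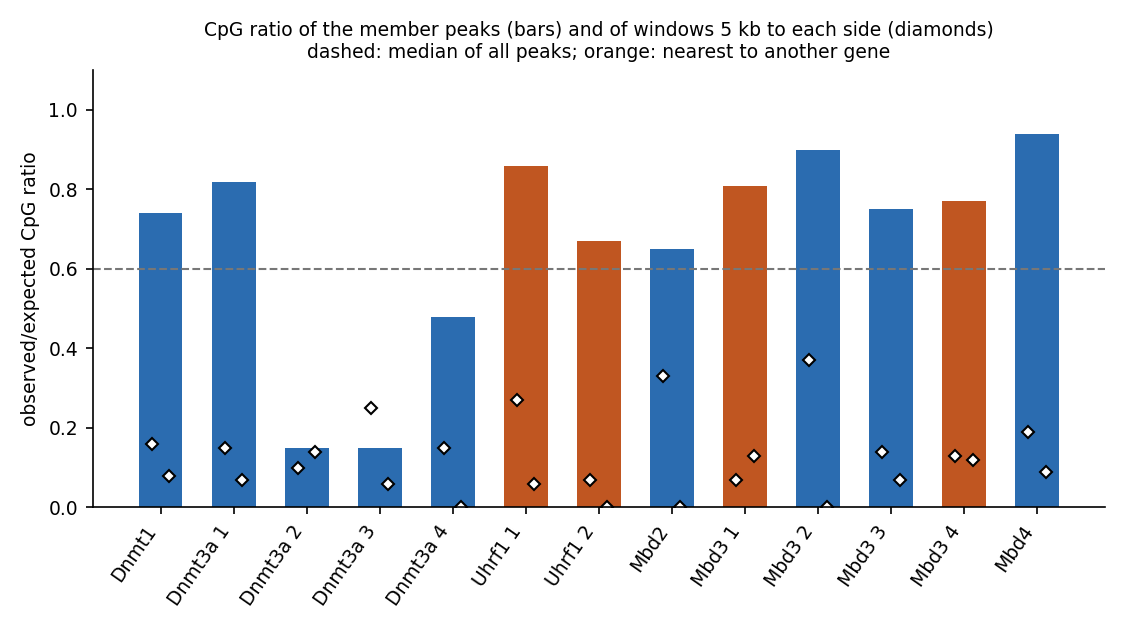
Observed/expected CpG ratio of each of the 13 peaks (bars, y axis from 0) and of windows of the same width 5 kb to the left and right (diamonds), with the median of all peaks as a dashed line. The bars of the second and the third Dnmt3a peak reach 0.15 and that of Mbd4 reaches 0.94, and orange bars are peaks nearest to another gene.

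The 13 peaks were mostly richer in CpG than their surroundings, as were most peaks of the list. The median CpG ratio of the 13 was 0.75, with a range of 0.15 to 0.94, and the median of their flanking windows was 0.11. The ratio was above the mean of both flanks for 12 of the 13 peaks, all but the third Dnmt3a peak, although at the second Dnmt3a peak the difference was small (0.15 against 0.10 and 0.14). The same held for 10195 of all 11938 peaks on assembled chromosomes and for 6851 of the 7167 within 2 kb of a protein-coding TSS. Over all peaks the median ratio was 0.60, over peaks within 2 kb of a protein-coding TSS 0.77, and over the remaining peaks 0.30. The bars of the CpG plot show this split within Dnmt3a, where the first peak resembled promoter peaks and the second and the third did not. GC content ran from 56.4% to 76.3%.

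An exact EGR1 motif on either strand was found in 4 of the 13 peaks (30.8%), in 16.6% of all peaks and in 22.6% of peaks within 2 kb of a protein-coding TSS, where 10 of the 13 lay. All 4 were the form GCGGGGGCG, which 12.5% of all peaks held, whereas GCGTGGGCG, present in 4.41%, was found in none. The 4 peaks were the first of Dnmt3a, the second of Uhrf1, that of Mbd2 and the last of Mbd3. Of the 4 genes with a peak within 500 bp of a start site, Mbd2 was thus the only one with an exact motif in that peak. With 1 mismatch allowed, 9 of the 13 peaks held a site, as did 69.8% of all peaks, 82.6% of those within 2 kb of a protein-coding TSS and 27.2% of RefSeq promoters. The share of the 13 peaks (69.2%) was thus near that of the whole list and below that of peaks near start sites. Such a match describes the letters and not EGR1 contact.

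Motifs of other promoter-binding factors were searched in the same way. The GC box GGGCGG, which can overlap the EGR1 motif, was in 9 of the 13 peaks and in 55.8% of all peaks. The NRF1 core CGCATGCG was in the Dnmt1 peak and in the Mbd3 peak near Uqcr11, and in 1.46% of all peaks and 1.87% of RefSeq promoters. The ETS motif CCGGAAG was in the Mbd2 peak and in the peak near Uqcr11 (7.09% of all peaks). The E-box CACGTG was in the last Dnmt3a peak and in the peak near Mex3d (7.46% of all peaks). Neither the CRE TGACGTCA nor the YY1 core AAGATGGCG was found in any of the 13, at shares of 1.3% and 1.08% of all peaks.

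**Figure D4:**
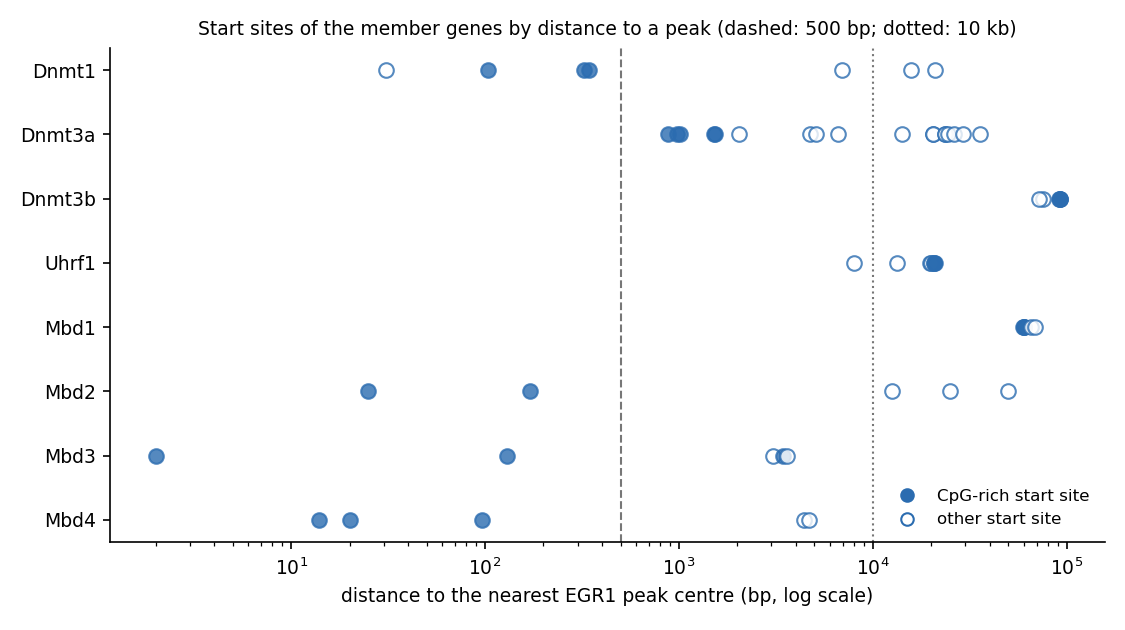
Every annotated start site of the 8 genes (points) by its distance to the nearest EGR1 peak centre in bp (x axis, log scale), with CpG-rich starts filled and 500 bp and 10 kb as dashed and dotted lines. The filled points of Dnmt1, Mbd2, Mbd3 and Mbd4 lie left of 500 bp except for 1 of Mbd3 at 3433 bp, those of Dnmt3a between 878 and 1540 bp, and those of Dnmt3b, Uhrf1 and Mbd1 beyond 10 kb.

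The 8 genes have 59 distinct start sites, of which 26 were CpG-rich. A peak centre lay within 500 bp of 10 of the 26 CpG-rich starts and of 1 of the 33 others, the start of Dnmt1-201. Starts of a gene lie close together and share peaks, so they are not independent. Shares over the start sites of all genes are not given here. By gene, 43.1% of protein-coding genes with a CpG-rich promoter and 25.8% of all had a peak centre within 500 bp of a start. These shares count genes and not starts, and the genes of the first are among those of the second. Whether the difference between the 26 and the 33 starts is particular to the 8 genes was not tested. The plot of start sites shows that CpG-rich starts with no peak were found in Dnmt3a, Dnmt3b, Uhrf1, Mbd1 and Mbd3, at distances from 878 to 91791 bp. RefSeq promoter sequences (GRCm38.p6) were matched for 6 of the 8 genes, not for Mbd1 and Mbd2. Among these the only one with an exact EGR1 motif was that of Dnmt3b.

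**Figure D5:**
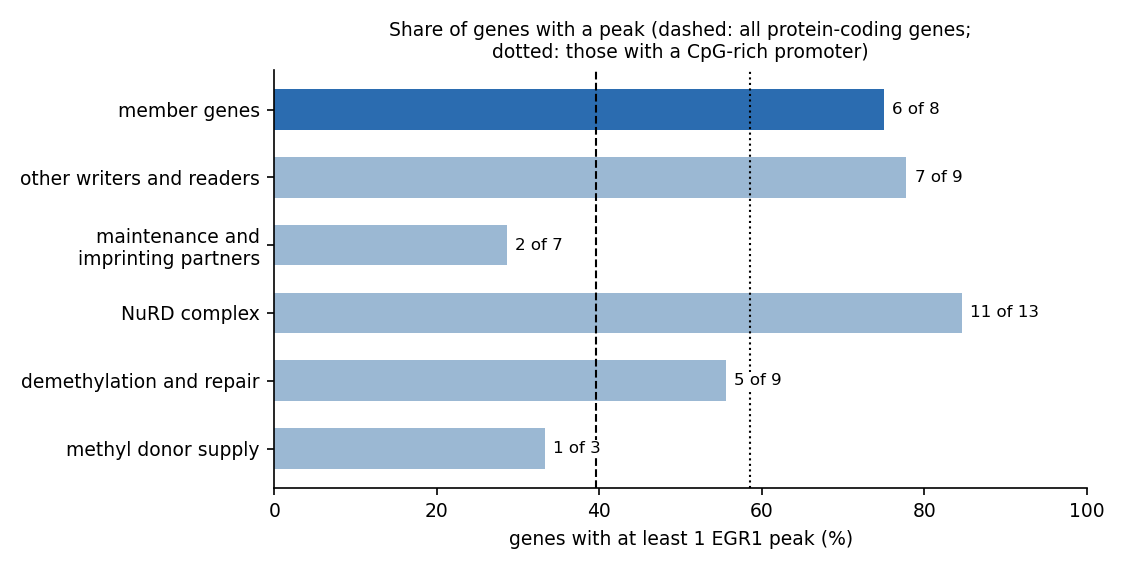
Percentage of genes with at least 1 EGR1 peak (x axis) in the 8 genes and in 5 related lists, with the number of genes at each bar, the share of all protein-coding genes as a dashed line and that of genes with a CpG-rich promoter as a dotted line. NuRD subunits reach 84.6% and maintenance and imprinting partners 28.6%. Not drawn are their shares with a peak within 500 bp of an own start, 53.8% and 28.6%.

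Other genes of the same pathways were counted by the same rule, and the plot of shares by list sets them beside the 39.6% of all protein-coding genes and the 58.5% of those with a CpG-rich promoter. Of 9 further genes related to the writers and readers, 7 had a peak. The lowest IDR was that of Mbd5 (1.04e-08), whose start is next to that of Orc4, a gene of the origin recognition complex. Uhrf2, the paralogue of Uhrf1, had a peak 84 bp upstream of its start (IDR 2.18e-07), in contrast to Uhrf1, and of the 2 Mbd6 peaks the one with the lower IDR (8.63e-07) was nearest to Ddit3. Dnmt3l, a cofactor of de novo methylation, and Mbd3l2 had none. Of 13 subunits of NuRD, the complex of Mbd2 and Mbd3, 11 had a peak, all but Hdac1 and Mta3. A peak centre lay within 500 bp of an own start for 7 (53.8%), against 43.1% of protein-coding genes with a CpG-rich promoter. The only Mta2 peak was nearest to Tut1, and the Mta1 peak with the lower IDR was nearest to Crip2. The lowest IDRs of the NuRD genes were 5.32e-08 at the neuronal remodeller gene Chd5 and 5.9e-08 and 4.8e-07 at Chd4. The Chd5 peak lay 8423 bp downstream of its nearest start, and the first Chd4 peak 3 bp upstream of its start.

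Of 9 genes of active demethylation and repair, 5 had a peak. The lowest IDRs belonged to 2 peaks of Tet2 (2.8e-07 and 5.1e-07), a dioxygenase that oxidises methylcytosine, and to Gadd45b (2.22e-06). Tet3 had 5 peaks and Tet1 none. Of 7 partners of maintenance methylation and imprinting only Pcna, the sliding clamp, and Trim28, the corepressor of imprinted regions, had peaks. The Pcna peaks had IDRs of 7.67e-08, nearest to Cds2, and 2.24e-07, 22 bp upstream of Pcna, and of the 2 Trim28 peaks the one with the lower IDR (1.17e-07) was nearest to Zbtb45 and the other lay within 500 bp of a Trim28 start. Of 3 genes of methyl donor supply, only Mat2b, a subunit of methionine adenosyltransferase, had a peak (5.95e-05). These lists are short, and their shares were tested neither against each other nor against the background.

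In the whole list, 11938 peaks lay on assembled chromosomes and 76 on scaffolds, and the median width was 250 bp. Of marker genes of the cell types of the cortex, 7 of 8 neuronal genes had a peak, against 39.6% of all protein-coding genes and 58.5% of those with a CpG-rich promoter, and the lowest IDRs were at Camk2a (1.9e-08) and at 2 peaks of Slc17a7 (3.55e-08, nearest to Gfy, and 1.44e-07). None of 4 astrocytic genes had one. Peaks were found for 2 of 4 oligodendrocytic genes, Mbp (1.12e-07 and 0.00378) and Mobp (9.72e-07), and for 3 of 4 microglial genes, with the lowest IDRs at Aif1 (4.64e-08), P2ry12 (3.97e-05) and Cx3cr1 (0.000394). These 3 microglial peaks were nearest to Prrc2a, Med12l and Csrnp1. No microglial or oligodendrocytic gene had a peak within 500 bp of its own start. Of the neuronal genes 4 of 8 had one, against 25.8% of all protein-coding genes and 43.1% of those with a CpG-rich promoter. A peak does not measure expression, and the tissue was not sorted, so the cell types behind the 13 peaks are not known. The 31-bp word at the middle of each of the 13 peaks occurred 1 time in the assembled genome.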

How the data were processed

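EGR1 ChIP-seq of pooled frontal cortices was analysed from 1 deposited list. After alignment to mm10 (Bowtie), the authors ran the peak caller SPP on either replicate and deposited the merged peaks with an IDR of at most 2%, a unit like a q-value. The submitters' processing notes also list cutadapt 11.2, Bowtie2 2.2.9 and bedtools 2.26.0. The deposited positions were read as BED intervals, since their counting is not given in the sources used here, and are printed counted from 1. Genes, start sites and untranslated regions were taken from GENCODE M21 and sequence from GRCm38.p6.

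The genes and lists were chosen with earlier results of these data known. Text names every peak of the 8 genes, genes with a start within 2 kb of one, the nearest peak where there was none, and the 3 peaks of lowest IDR of each list. Some genes of these lists are not reported here and were left out of their counts. Other genes of a list with or without a peak were named after their values were seen. Shares were taken over protein-coding genes on assembled chromosomes, and CpG ratios and motifs over whole peaks and both strands. No count model was possible, and no test was run. Scripts used Python 3.11.15 with numpy 2.4.6, scipy 1.17.1 and matplotlib 3.10.9. On simulated data, 200 of 200 planted peaks were counted to their gene and 200 of 200 motif states were recovered. All planted peaks lay within the 10 kb of the rule. The motifs stood in sequence otherwise made of A and T, so motif calls in GC-rich sequence were not checked.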

Additional observations from a re-analysis of the deposited data

How the results depend on the processing

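Of 40 alternative values, 26 stayed close to the reported one (counts within 1.5 times, shares within the 95% Wilson interval, CpG ratios within 1 SD over peaks) and 14 did not. The 13 peaks became 9 with 5 kb or 2 kb, an IDR of at most 0.1% or the nearest protein-coding gene. These counts were within 1.5 times and so were taken as close. The 13 peaks became 6 when only the gene body or only the 2 kb around start sites was searched. The 6 genes became 3 with the gene body alone (Dnmt1, Dnmt3a and Mbd3). With 5 kb or 2 kb in place of 10 kb, start sites of basic or of protein-coding transcripts, or the nearest protein-coding gene, 5 genes kept a peak and Uhrf1 had none. The share of protein-coding genes with a peak moved from 39.6% to 36% with 5 kb, 34.2% with 2 kb, 23.9% with the gene body, 29.6% with start sites alone, 37% and 29% with an IDR of at most 1% and 0.1%, 38.4% with basic and 38.6% with protein-coding transcripts, 23% over all genes and 58.5% over genes with a CpG-rich promoter. Peaks with an EGR1 motif increased from 4 to 9 with 1 mismatch. The median CpG ratio stayed between 0.75 and 0.77. The list merges the replicates, so no replicate could be left out, and precision per peak is unknown.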
